A study of Mus musculus with 58 samples.

Results

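The brakes of the cell cycle were followed through 58 single bone marrow cells in 10 genes of the 23152 listed in the count table. They were taken by name: the CDK inhibitors Cdkn1a, Cdkn1b, Cdkn1c, Cdkn2c and Cdkn2d, the retinoblastoma family genes Rb1 and Rbl2, and Txnip, Ndn and Btg2, which restrain growth. All 10 had at least 1 count. Cells came from C57BL/6 mice, wild type in genotype, and were sorted as 34 long-term haematopoietic stem cells (LT-HSC; without lineage markers, Flt3 or CD34, with Kit and Sca-1) and 24 common myeloid progenitors (CMP; with Kit and CD34, without lineage markers, Sca-1 or CD16/32). Ages and the number of animals were not given in the sources used here, and a passage range of 8 to 10 stands in the labels of these sorted cells without explanation. LT-HSC were also set apart by the number in their titles, as LT-HSC 1 to 16 (16 cells) and LT-HSC 17 to 34 (18 cells). No label says what, if anything, divides the blocks.

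Cyclin-dependent kinases drive a cell into division by phosphorylating the retinoblastoma proteins, which then release E2F factors to switch on replication genes. The Cip/Kip inhibitors (p21, p27 and p57, from Cdkn1a, Cdkn1b and Cdkn1c) bind cyclin-CDK complexes broadly, while the INK4 inhibitors (p18 and p19, from Cdkn2c and Cdkn2d) bind CDK4 and CDK6. Rb1 and Rbl2 (p130) hold E2F target genes silent, p130 as part of the DREAM complex of resting cells. In mice, most LT-HSC rest outside the cell cycle, and p57, Txnip and Ndn are known to help keep them there.

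The gates carried their defining transcripts. All 6 stem cell markers (Procr, Slamf1, Hlf, Mecom, Ly6a and Mllt3) exceeded 2-fold in favour of LT-HSC, with a summed level of 485 CPM (counts scaled to a common total) in LT-HSC and 59.8 CPM in CMP, and all 5 granule genes (Mpo, Elane, Ctsg, Prtn3 and Cst7) were at least 2-fold lower, with 436 CPM in LT-HSC and 5061 CPM in CMP. LT-HSC held 45022 to 860553 counts per cell (median 236774) and CMP 88329 to 706184 (median 290977). No animal is labelled, so each gate is 1 sample, levels are counts pooled over cells, and no difference has a replicate check or a test. Intervals are exact 95% intervals for counting error alone, and the sources used here do not state whether a count is a molecule or a read. Gate and sex were nearly the same split: no LT-HSC had an Xist count, neither had CMP 1 and CMP 2, and all 22 CMP numbered 3 to 24 had one. Gate and sex therefore cannot be told apart over the whole, and the values against CMP 1 and 2, which are only 2 cells, are given beside those over all CMP.

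The 250 bases before the transcription start are shown for Txnip, which had the most counts of the 10 genes, and for Cdkn1a and Btg2, whose ratio turned round with the set of CMP compared. Sequences are RefSeq's for GRCm38.p6, read 5′ to 3′ on the gene's strand, and capitals mark a motif that was chosen after the sequences were seen.
Txnip, chr3:96557707-96557956, plus strand: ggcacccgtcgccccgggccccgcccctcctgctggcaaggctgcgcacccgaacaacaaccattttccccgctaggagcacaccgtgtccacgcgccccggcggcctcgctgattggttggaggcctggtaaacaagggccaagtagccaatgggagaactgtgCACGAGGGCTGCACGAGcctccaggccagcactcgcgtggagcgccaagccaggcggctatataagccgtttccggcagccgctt
Cdkn1a, chr17:29090729-29090978, plus strand: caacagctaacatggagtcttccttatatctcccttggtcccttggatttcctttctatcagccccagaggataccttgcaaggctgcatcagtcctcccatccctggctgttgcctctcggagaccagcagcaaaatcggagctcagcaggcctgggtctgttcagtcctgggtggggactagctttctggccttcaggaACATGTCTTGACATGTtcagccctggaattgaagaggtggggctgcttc
Btg2, chr1:134079156-134079405, minus strand: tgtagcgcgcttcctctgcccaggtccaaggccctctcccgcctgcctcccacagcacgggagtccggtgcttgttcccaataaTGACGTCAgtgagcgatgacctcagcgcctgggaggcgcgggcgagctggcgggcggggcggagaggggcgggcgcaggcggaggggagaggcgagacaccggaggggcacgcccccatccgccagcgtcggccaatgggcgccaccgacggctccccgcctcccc

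The Txnip capitals are a pair of CACGAG boxes spaced by 5 bases (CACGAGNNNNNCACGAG), the form of a carbohydrate response element, to which the glucose sensors MondoA and ChREBP bind. This spelling was found on either strand in 1 of 32851 windows of 250 bases (0.00304%), that of Txnip. The Cdkn1a capitals are ACATGTNNNNACATGT, whose boxes carry the core letters of p53 binding sites, present in 4 windows (0.0122%). They lie in the window of the upstream of its 2 annotated starts, with 33 bases between motif and start. The Btg2 capitals are TGACGTCA, the cAMP response element bound by the CREB and ATF factors, present in 508 windows (1.55%). A match describes the letters only, and windows were at hand for 8 of the 10 genes, with none for Cdkn1c and Rb1.

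In LT-HSC against CMP, 3 of the 10 genes were at least 2-fold higher (Cdkn1c, Txnip and Ndn), 3 were at least 2-fold lower (Cdkn1a, Rbl2 and Btg2), and 4 lay between. Of the 10937 genes with at least 20 counts over both gates, 22.7% were past 2-fold upward in LT-HSC and 28.1% past it downward, so the counts of 3 and 3 stand near the background. The median log2 ratio of the 10 genes, with the CMP pool of Cdkn1c set to 3 counts, was 0.62, and that of all genes was -0.13. The genes also differed in how many cells carried them.

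**Figure D1:**
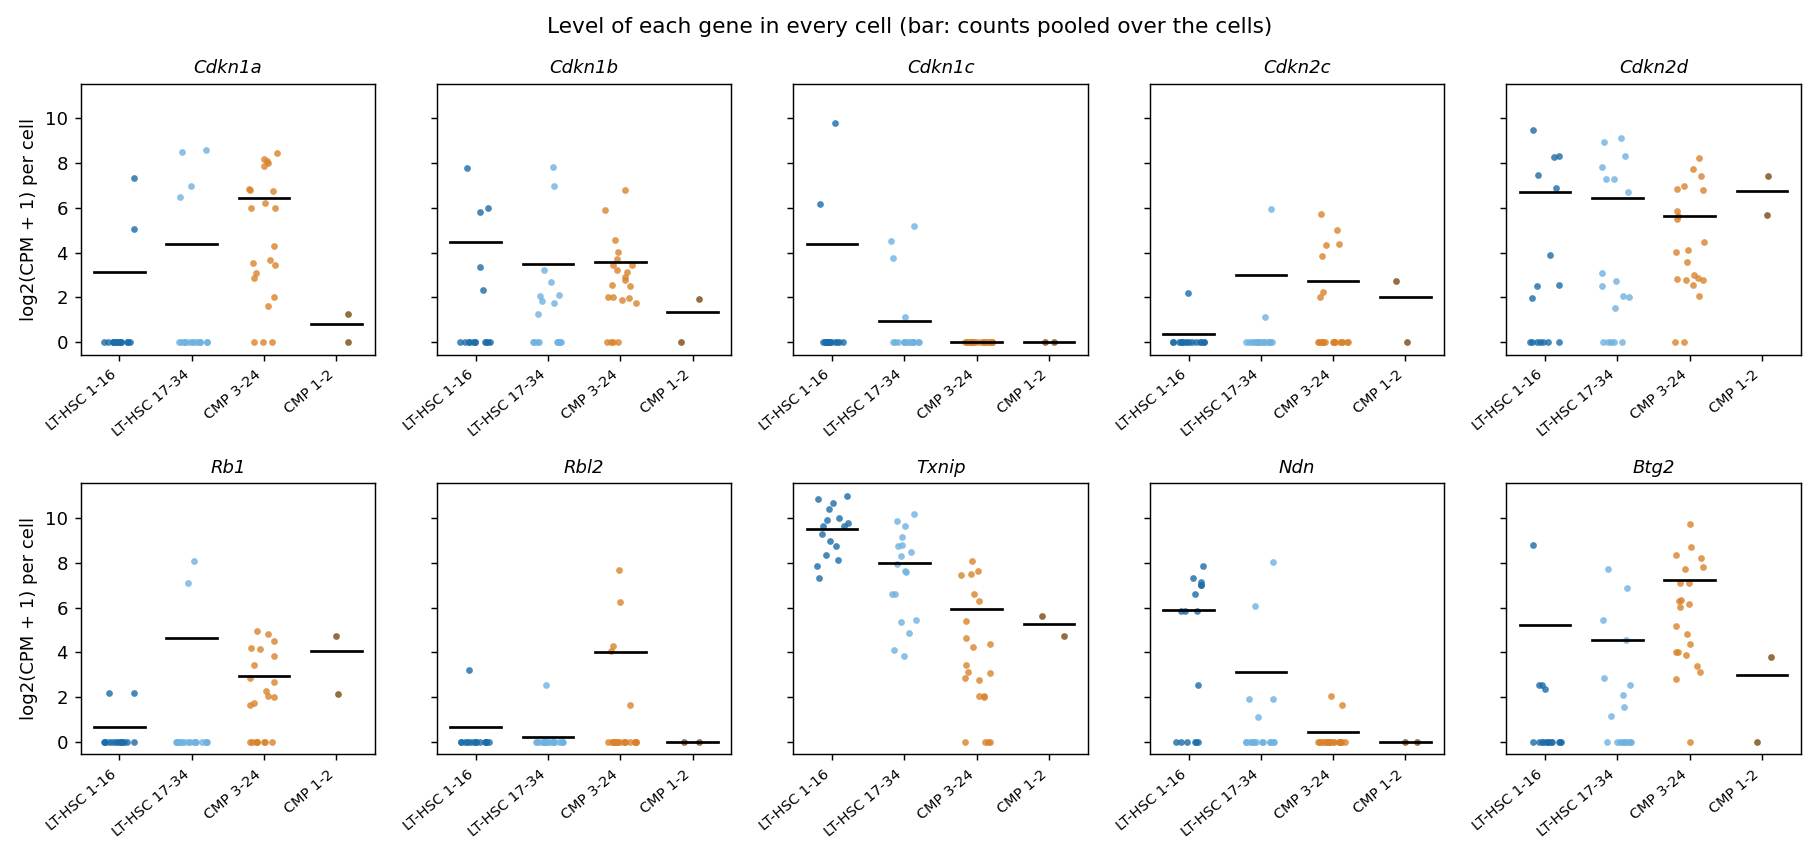
Level of each gene in every cell, as log2(CPM + 1) on the vertical axis, for LT-HSC 1 to 16, LT-HSC 17 to 34, CMP 3 to 24 and CMP 1 to 2 (1 point per cell; the bar is the pooled level). Txnip has a point above 0 in all 34 LT-HSC, while most other genes sit at 0 in many cells with a few high points.

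Txnip (thioredoxin-interacting protein, an arrestin-family inhibitor of thioredoxin and of glucose uptake; chr3:96557957-96561883 on mm10) was the most general of them. All 34 LT-HSC and 20 of 24 CMP had some Txnip, and 30 LT-HSC and 9 CMP had 10 counts or more. Per cell it spanned 13.2 to 2039 CPM in LT-HSC (median 431) and 0 to 273 CPM in CMP (median 13.9). The gates overlapped at the lower end, yet 22 of 34 LT-HSC lay above the highest CMP and no CMP reached the LT-HSC median. The pooled level was 421 CPM in LT-HSC and 56.4 CPM in CMP, a 7.46-fold difference (log2 2.90, interval 2.75 to 3.05). It held with any cell left out, between 2.81 and 3.20, and against CMP 1 and 2 alone (48.1 and 25.8 CPM in these cells) it was 3.45 (3.06 to 3.90).

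Ndn (necdin, an imprinted growth suppressor that binds E2F1 and p53; chr7:62346569-62350262) was carried by a subset of LT-HSC. It reached at least 10 counts in 8 of 34 LT-HSC (cells 1, 3, 4, 9, 12, 13, 15 and 28, at 56.6 to 265 CPM) and in none of 24 CMP. In CMP it had 1 count each in CMP 3 and CMP 5. Pooled, it stood at 25.3 CPM in LT-HSC and 0.28 CPM in CMP, a log2 ratio of 6.16 with an interval of 4.61 to 9.53 that reflects the 2 CMP counts, and 6.83 without CMP 5. Cells thinned to 97978 counts each, to equalise depth, gave Ndn in 9 of 30 LT-HSC (30.0%) and in 0 of 22 CMP. Against CMP 1 and 2, which had no count, the LT-HSC level was 10.9-fold higher when that pool was taken as 3 counts. This is log2 3.44, with a lower interval end of 3.13.

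Among the Cip/Kip inhibitors, Cdkn1c (p57, an imprinted inhibitor that mouse stem cells need for rest; chr7:143458339-143461050) was counted in LT-HSC alone. The 74 counts came from 6 LT-HSC, and the 24 CMP had none, with an exact upper limit of 0.52 CPM there. The LT-HSC pool, at 7.45 CPM, exceeded the CMP pool by at least 17.5-fold (log2 at least 4.13). LT-HSC 5 held 63 of these counts (880 CPM), LT-HSC 11 held 5, and cells 19, 25, 28 and 33 held 1 or 2 each. Without LT-HSC 5 the bound was log2 1.39, and against CMP 1 and 2 alone the difference was at least 3.20-fold.

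Cdkn1a (p21, the classical p53 target; chr17:29090976-29100727) went the other way over the whole gates. It was counted in 6 of 34 LT-HSC, at 160 CPM in cell 2, 32.1 in cell 4, 89.2 in cell 17, 356 in cell 19, 126 in cell 23 and 378 in cell 25. Of the 24 CMP, 20 carried it, up to 354 CPM in CMP 4, with a median of 15.2 CPM over CMP and 0 over LT-HSC. The positive LT-HSC reached as high as the positive CMP, and fewer LT-HSC were positive. Thinning left 4 of 30 LT-HSC (13.3%) and 14 of 22 CMP (63.6%) positive. The pooled level was 15.8 CPM in LT-HSC and 69.9 CPM in CMP, a log2 ratio of -2.14 (-2.41 to -1.88), and -2.80 without LT-HSC 17, which held 41.4% of the LT-HSC counts. CMP 1 had 1 count and CMP 2 none, so that against these cells the ratio was 3.77 (1.85 to 9.66), higher in LT-HSC.

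Cdkn1b (p27, held high in many resting cells; chr6:134920401-134925513) was spread thinly in both gates. It had at least 10 counts in LT-HSC 1, 9 and 23 (63.6, 221 and 225 CPM) and in CMP 4 and 11 (58.2 and 109 CPM), and was seen at all in 14 of 34 LT-HSC and 19 of 24 CMP. The pooled level was 14.1 CPM in LT-HSC and 9.20 CPM in CMP (log2 0.61, 0.18 to 1.06). Leaving out 1 cell moved this ratio between 0.01 and 1.28, the higher value without CMP 4. Against CMP 1 and 2, with 2 counts, it was 2.87 (1.30 to 6.24).

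The INK4 inhibitors differed in how widely they were found. Cdkn2d (p19; chr9:21288410-21291407) was the most widely counted inhibitor, seen in 22 of 34 LT-HSC and 22 of 24 CMP, and in 12 LT-HSC and 11 CMP with 10 counts or more. Its highest cells were LT-HSC 9 at 720 CPM and LT-HSC 19 at 552 CPM, against 300 CPM in CMP 22. Pooled levels of 92.4 CPM in LT-HSC and 59.5 CPM in CMP gave a log2 ratio of 0.64 (0.47 to 0.81), below 2-fold. Against CMP 1 and 2, at 51.0 and 172 CPM, the ratio was -0.20 (-0.45 to 0.08), an interval that holds 0. Cdkn2c (p18; chr4:109660876-109667189) had 46 counts in LT-HSC and 37 in CMP, with an interval of the log2 ratio from -0.83 to 0.49 around -0.18. LT-HSC 17 alone held 44 of the 46. Without that cell the ratio was -4.29, and against CMP 1 and 2, with 4 counts, the ratio over all LT-HSC was 0.42 (-0.88 to 2.51). Across CMP, 8 cells shared the 37 counts, with 14 in CMP 22 and 8 in CMP 10.

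Rb1 and Rbl2 were counted in few LT-HSC, 4 and 2 of the 34 cells. Rb1 (the retinoblastoma protein; chr14:73183673-73325822) was at 135 CPM in LT-HSC 21 and 272 CPM in LT-HSC 22, with 1 count each in LT-HSC 1 and 4 and none in the other 30. In CMP, 16 of 24 cells had a count, none above 29.9 CPM. The pooled levels of 15.7 CPM in LT-HSC and 8.35 CPM in CMP gave a log2 ratio of 0.90 (0.47 to 1.37), which was -0.16 without LT-HSC 22 and -0.01 (-0.66 to 0.77) against CMP 1 and 2. Rbl2 (p130; chr8:91070057-91123844) had 3 counts in LT-HSC and 89 in CMP, of which CMP 18 held 68 (206 CPM). Its log2 ratio of -5.17 (-7.69 to -3.79) was -3.18 without CMP 18. CMP 1 and 2 had no Rbl2 count and LT-HSC only 3, so neither pool passed 3 counts and no ratio is given against CMP 1 and 2. Rbl1 (p107), the family member of cycling cells, was at 35.1 CPM in LT-HSC (13 cells) and 65.1 CPM in CMP (log2 -0.89, -1.10 to -0.69), and lay at -0.04 against CMP 1 and 2.

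Btg2 (an antiproliferative gene induced by p53 and by growth factor signals; chr1:134075170-134079120) was a CMP gene over the whole gates. CMP cells reached 854 CPM in CMP 20 and 420 CPM in CMP 14, with a median of 49.9 CPM and a count in 22 of 24. LT-HSC had a median of 0, and 4 of 34 had at least 10 counts, namely 440 CPM in cell 12, 42.5 in cell 17, 207 in cell 27 and 117 in cell 32. After thinning, 8 of 30 LT-HSC (26.7%) and 19 of 22 CMP (86.4%) had a count. Pooled levels were 27.4 CPM in LT-HSC and 122 CPM in CMP, a log2 ratio of -2.16 (-2.36 to -1.96). Of the LT-HSC counts, 45.2% came from cell 12. The ratio was -2.98 without that cell and -1.51 without CMP 20.

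**Figure D2:**
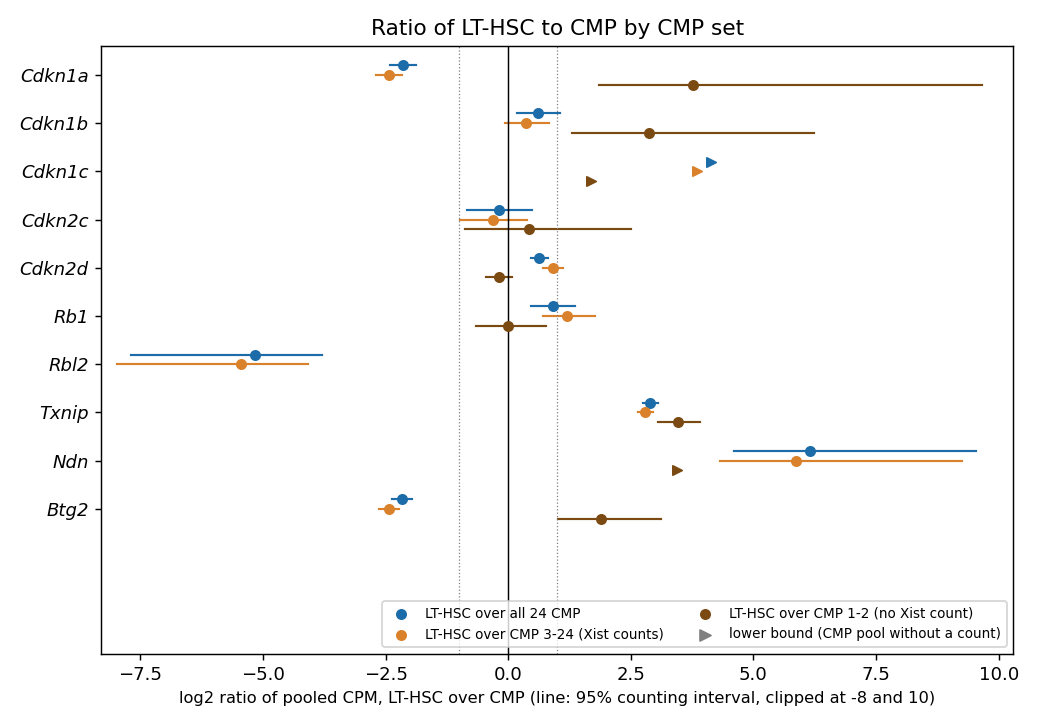
Log2 ratio of pooled CPM of LT-HSC over all 24 CMP, over CMP 3 to 24 and over CMP 1 to 2, with 95% counting intervals. Triangles, labelled lower bound, are ratios with a CMP pool without a count set to 3 counts. No ratio is drawn for Rbl2 against CMP 1 to 2. Txnip, Ndn and Cdkn1c lie right of 0 for every set of CMP, and Cdkn1a and Btg2 lie left of 0 except against CMP 1 to 2.

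Against CMP 1 and 2, Btg2 also turned round: its pooled level was 27.4 CPM in LT-HSC and 6.99 CPM in these CMP, a log2 ratio of 1.90 (1.02 to 3.12). Of the 9 genes with at least 20 counts in that comparison, 6 exceeded 2-fold in favour of LT-HSC and none the reverse. For 2 of the 6, Cdkn1c and Ndn, the CMP pool had no count and was set to 3 counts. There, 43.1% of all genes were higher and 18.9% lower, and the median of all genes was 0.63. Within CMP, Cdkn1a stood at 85.4 CPM in CMP 3 to 24 and 0.78 CPM in CMP 1 to 2 (log2 6.20, 4.30 to 12.1), and Btg2 at 148 CPM in CMP 3 to 24 and 6.99 CPM in CMP 1 to 2 (4.33, 3.47 to 5.54). CMP 1 and 2 also differed in other ways. Their immediate early genes summed to 272 CPM against 3121 CPM in CMP 3 to 24, and all 12 measured ones were at least 2-fold higher in CMP 3 to 24, beside 46.0% of all genes. They were deeper, with a median of 264742 counts in CMP 3 to 24 and 644013 in CMP 1 to 2. Granule genes were present in both (1089 and 5034 CPM summed per cell), 4 of the 6 stem markers were at 0, and neutrophil markers summed to 1051 CPM in CMP 3 to 24 and 264 CPM in CMP 1 to 2. The part of any of these in the reversal was not tested.

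CDK inhibitors were counted together in some cells of both gates. At a minimum of 10 counts, 20 of 34 LT-HSC and 7 of 24 CMP carried none of the 5, 8 LT-HSC and 10 CMP carried 1, 4 LT-HSC and 6 CMP carried 2, and 2 LT-HSC and 1 CMP carried 3. All 5 LT-HSC with Cdkn1a at this level (cells 2, 17, 19, 23 and 25) also carried Cdkn2d, which makes 5 of the 12 LT-HSC with Cdkn2d (41.7%). In CMP, each gene was in 11 cells at this level, and 5 of them carried both (45.5% of each). Cdkn1a and Btg2 shared 7 CMP, which is 63.6% of the cells with Cdkn1a and 53.8% of those with Btg2, and 1 LT-HSC. All 8 LT-HSC with Ndn also had Txnip, as did 30 of the 34.

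**Figure D3:**
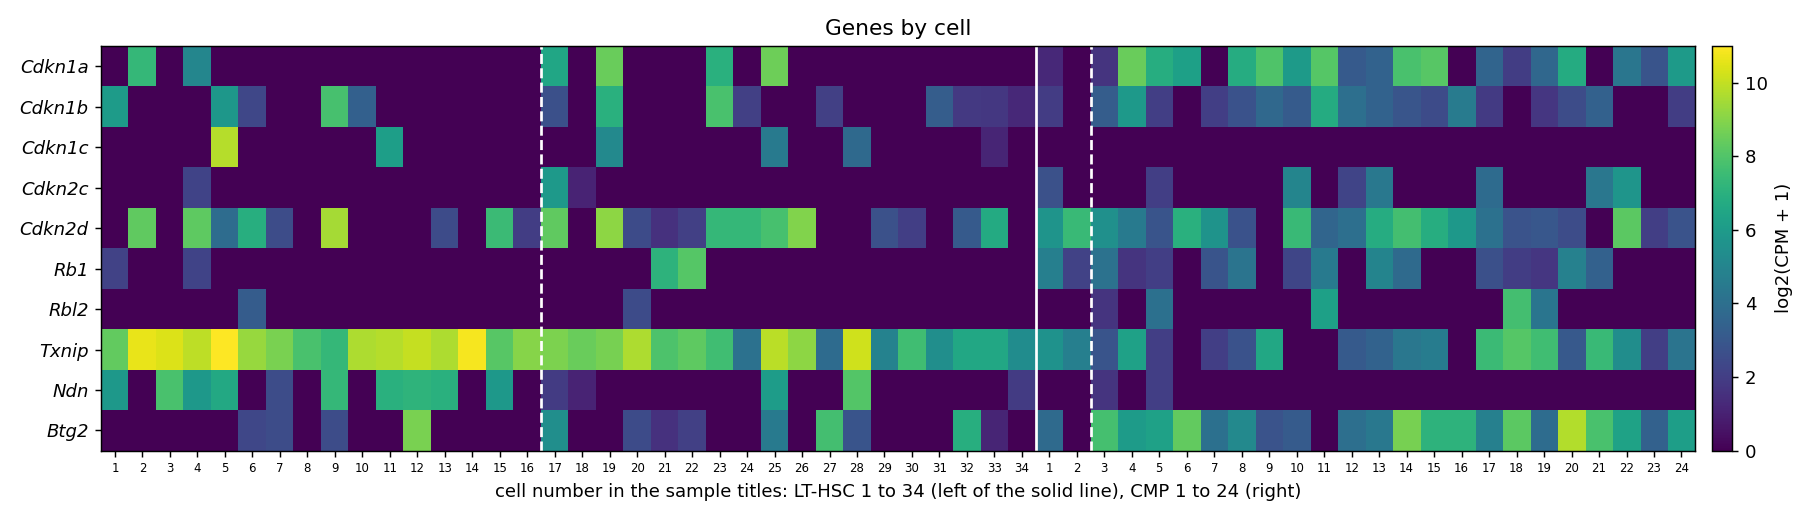
The 10 genes (rows) in each of 58 cells (columns, numbered as in the titles; LT-HSC left of the solid line, CMP right), coloured by log2(CPM + 1); dashed lines follow LT-HSC 16 and CMP 2. The Txnip row is filled across LT-HSC, and Cdkn1a and Btg2 fill most columns of CMP 3 to 24.

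LT-HSC with several of the genes differed in cycle state. LT-HSC 17 had at least 10 counts of Cdkn1a, Cdkn2c, Cdkn2d, Txnip and Btg2, and its share of replication and mitosis transcripts was 77.1 per 10000 counts, the highest among the 34 LT-HSC. LT-HSC 23 had at least 10 counts of Cdkn1a, Cdkn1b, Cdkn2d and Txnip, and its share was 0.54 per 10000, the lowest among the 58 cells. LT-HSC 9 had at least 10 counts of Cdkn1b, Cdkn2d, Txnip and Ndn, and its share of 7.73 per 10000 stood near the LT-HSC median. LT-HSC 21 and 22, the cells with most of the Rb1, had shares of 42.2 and 41.2 per 10000, against an LT-HSC median of 7.85 and a CMP median of 47.3.

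Between the blocks, 4 of the 9 genes with at least 20 LT-HSC counts were past 2-fold upward in LT-HSC 1 to 16 relative to LT-HSC 17 to 34 (Cdkn1b, Cdkn1c, Txnip and Ndn) and 3 at least 2-fold lower (Cdkn1a, Cdkn2c and Rb1). The background was 26.8% higher and 29.5% lower among 9669 genes. Rbl2, with 2 counts in LT-HSC 1 to 16 and 1 count in LT-HSC 17 to 34, was too rare to compare. The median of the 9 genes was 0.72, but -0.34 without LT-HSC 9, 0.080 with CPM averaged over cells and 0.19 with thinned cells. That of all genes was -0.10. Depth differed too, with a median of 211044 counts in LT-HSC 1 to 16, against 306454 counts in LT-HSC 17 to 34.

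The block difference in Txnip and Ndn was spread over many cells. Txnip spanned 158 to 2039 CPM in LT-HSC 1 to 16 (median 794) and 13.2 to 1161 CPM in LT-HSC 17 to 34 (median 221). The blocks overlapped, with 11 of the 18 later cells above the lowest of the earlier ones and 2 above their median. Pooled levels were 733 CPM in LT-HSC 1 to 16 and 257 CPM in LT-HSC 17 to 34, a log2 ratio of 1.51 (1.42 to 1.60). Each block remained above CMP, with log2 ratios over CMP of 3.70 for LT-HSC 1 to 16 and 2.19 for LT-HSC 17 to 34. Ndn had at least 10 counts in 7 of the LT-HSC 1 to 16 and in 1 of the LT-HSC 17 to 34, with pooled levels of 58.9 CPM in LT-HSC 1 to 16 and 7.67 CPM in LT-HSC 17 to 34 (log2 2.93, 2.49 to 3.42). LT-HSC 28 held 42 of the 50 later counts, and without it the ratio was 5.47.

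For the other genes, a few cells decided the block ratio. Cdkn1c was at 19.9 CPM in LT-HSC 1 to 16 and 0.92 CPM in LT-HSC 17 to 34 (log2 4.33), and at a log2 ratio of 0.72 without LT-HSC 5. Cdkn1b was at 21.1 CPM in LT-HSC 1 to 16 and 10.4 CPM in LT-HSC 17 to 34 (1.02, 0.52 to 1.52), which became -0.34 without LT-HSC 9 and 2.86 without LT-HSC 23. Rb1 had 2 counts in LT-HSC 1 to 16, against 154 counts in LT-HSC 17 to 34 (-5.01, -8.39 to -3.45), those of cells 21 and 22; without LT-HSC 22 it was -3.95. Cdkn2c had 1 count in LT-HSC 1 to 16, in cell 4, and 45 counts in LT-HSC 17 to 34 (-3.99, -9.89 to -2.0). Of the later counts, 44 came from LT-HSC 17 and 1 from LT-HSC 18. Without LT-HSC 17, Cdkn2c was too rare to compare between blocks, and no ratio was given. Without LT-HSC 4 the ratio was -2.85, with the earlier block set to 3 counts. Cdkn1a was at 7.92 CPM in LT-HSC 1 to 16, from cells 2 and 4, and 19.9 CPM in LT-HSC 17 to 34, from cells 17, 19, 23 and 25 (-1.31, -1.99 to -0.73). Without LT-HSC 2 that ratio was -2.80, and without LT-HSC 17 it was -0.49. Cdkn2d stood within 2-fold, at 105 CPM in LT-HSC 1 to 16 and 85.9 CPM in LT-HSC 17 to 34 (0.29, 0.09 to 0.48), and at -0.40 without LT-HSC 9. Btg2 stood at 36.9 CPM in LT-HSC 1 to 16 and 22.4 CPM in LT-HSC 17 to 34 (0.72, 0.37 to 1.08), but at -4.33 without LT-HSC 12.

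Markers and cell states moved with the blocks. Replication and mitosis transcripts had medians of 6.80 per 10000 in LT-HSC 1 to 16 and 21.4 per 10000 in LT-HSC 17 to 34. Stem markers spanned 198 to 1952 CPM per cell in LT-HSC 1 to 16 (median 1057) and 0 to 1732 CPM in LT-HSC 17 to 34 (median 255), with 5 of 6 at least 2-fold higher in LT-HSC 1 to 16. Granule genes spanned 0 to 1129 CPM in LT-HSC 1 to 16 and 8.44 to 1564 CPM in LT-HSC 17 to 34, and Mpo had 2 counts in LT-HSC 1 to 16, against 406 counts in LT-HSC 17 to 34. Of the T and NK cell markers, Nkg7 was at 2.35 CPM in LT-HSC 1 to 16 and 530 CPM in LT-HSC 17 to 34, while Cd3d, Cd3e and Cd3g were at 0 in every cell. Neutrophil markers were counted in all 34 LT-HSC, at 219 to 447 CPM in LT-HSC 1 to 16 and 221 to 606 CPM in LT-HSC 17 to 34. Their part in the block ratios was not tested.

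**Figure D4:**
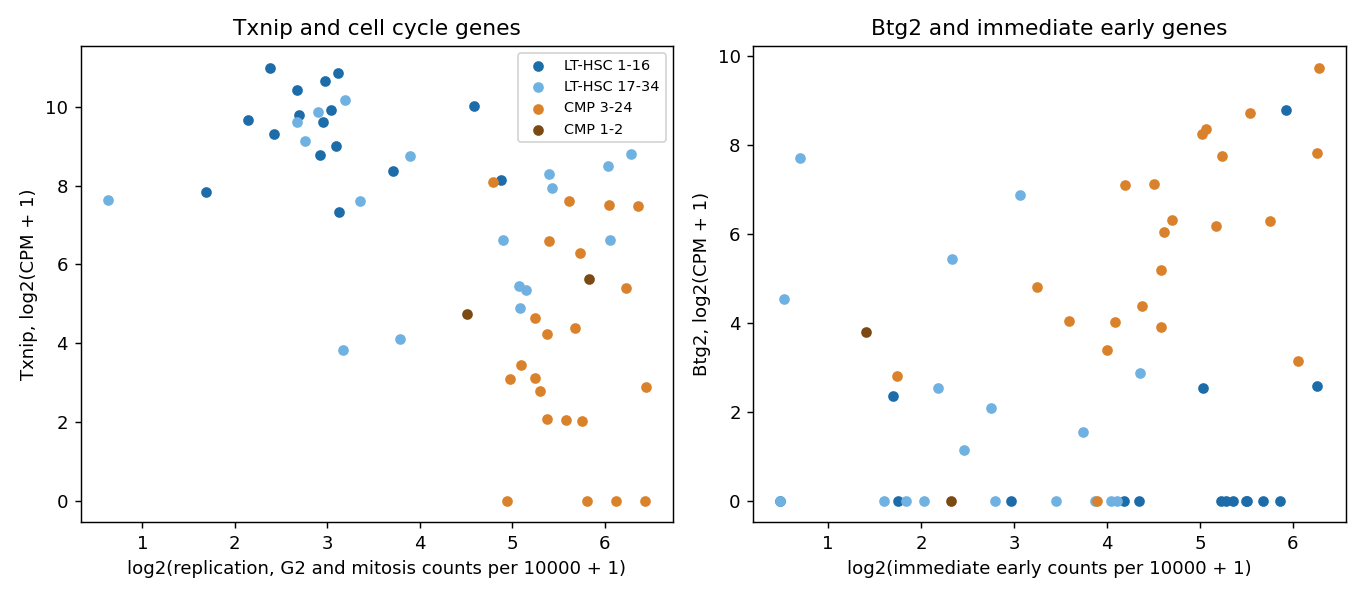
Left, Txnip (log2(CPM + 1)) against the share of replication, G2 and mitosis counts (log2 of counts per 10000 plus 1); right, Btg2 against the share of immediate early counts; 1 point per cell, coloured by LT-HSC block or CMP set. LT-HSC 1 to 16 lie mostly at the upper left for Txnip, and Btg2 is higher in CMP with more immediate early counts.

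Across the 34 LT-HSC, Spearman's rho of Txnip was -0.49 with the share of cycle transcripts, 0.65 with that of stem markers and -0.47 with total counts. These points share the block: within LT-HSC 1 to 16 the values with cycle transcripts, stem transcripts and total counts were -0.17, 0.52 and -0.47. Within LT-HSC 17 to 34 they were -0.22, 0.32 and -0.27. Among 3382 genes compared, Txnip was most alike in pattern to Mllt3 (rho 0.69), then to Gm15915 (0.61) and Apoe (0.60). Mllt3 is itself part of the stem marker share, and its rho with total counts was -0.33. Cdkn2d was most alike to Krcc1 (0.58), Arid4a (0.54) and Mthfsl (0.50). Across 24 CMP, Btg2 had a rho of 0.69 with the immediate early share, and of 0.64 across the 22 CMP numbered 3 to 24. All are descriptions of cells that share 1 sample per gate.

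The kinases and cyclins that the inhibitors bind went both ways between gates. Of 9 genes, 2 passed 2-fold upward in LT-HSC and 3 downward, near the 22.7% and 28.1% of all genes. Their median log2 ratio was 0.16. Against CMP 1 and 2, 3 of 8 passed upward and 1 downward (median 0.30), beside 43.1% and 18.9% of all genes. Cdk4 was at 660 CPM in LT-HSC and 559 CPM in CMP, and Cdk6 at 1.71 CPM in LT-HSC and 34.8 CPM in CMP (log2 -4.31), where CMP 18 held 64.6%. Ccne1, the cyclin that takes cells into S phase, was at 1.11 CPM in LT-HSC and 28.3 CPM in CMP (-4.62, and -3.27 without CMP 3, the source of 63.5% of the CMP counts), whereas its relative Ccne2 was at 10.7 CPM in LT-HSC and 0.71 CPM in CMP (3.78), counted in 3 LT-HSC. Ccnd1 was at 15.1 CPM in LT-HSC and 3.54 CPM in CMP (2.07), and 149 of its 150 LT-HSC counts lay in LT-HSC 1 to 16.

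Of 14 partners of the retinoblastoma proteins, 0 passed 2-fold upward in LT-HSC, beside 22.7% of all genes. Downward, 4 passed, a share near the background of 28.1%, and the median of the list was -0.66. With CMP 1 and 2 as the comparison, 4 of 12 passed upward and 3 downward (median 0.12), beside 43.1% and 18.9% of all genes. The repressor E2f8 was at 3.42 CPM in LT-HSC and 58.1 CPM in CMP (-4.06), and Lin54, the DNA-binding subunit of DREAM, at 1.41 CPM in LT-HSC and 12.6 CPM in CMP (-3.12). At the other end, Lin52 stood at 22.7 CPM in LT-HSC and 13.2 CPM in CMP (0.78), and E2f2 at 6.75 CPM in LT-HSC and 5.95 CPM in CMP (0.18). LT-HSC 18 held 82.1% of the LT-HSC E2f2 counts, and without that cell E2f2 stood at -2.13. The 6 genes of the ubiquitin ligases that turn over p27 and cyclin E all lay within 2-fold (median -0.08, and 0.36 against CMP 1 and 2), from Skp1a (0.57) over Rbx1 (-0.01) to Cks1b (-0.81) and Fbxw7 (-0.93). For the last 2 this rested on 1 cell each. LT-HSC 27 held 98.7% of the LT-HSC Fbxw7 counts, and without that cell Fbxw7 stood at -6.60. Without LT-HSC 33, Cks1b stood at -1.39. Cks1b, the cofactor for p27 turnover, was at 65.7 CPM in LT-HSC 1 to 16 and 297 CPM in LT-HSC 17 to 34 (-2.18), where LT-HSC 33 held 43.2% of the later block's counts.

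Genes of mitosis, many of them repressed by DREAM in resting cells, were lower in LT-HSC. Of 18 G2 and mitosis genes, 12 were at least 2-fold lower and 0 higher (median -1.51). Of 16 replication genes, 2 were lower and 0 higher (median -0.44). The shares of all genes were 28.1% lower and 22.7% higher. Relative to CMP 1 and 2, 6 of 17 mitosis genes were lower and 1 higher (median -0.60), and replication genes split evenly, with 3 of 16 each way (median 0.04). Of all genes, 18.9% were lower and 43.1% higher in that comparison. Foxm1, the mitotic transcription factor, was at 0.60 CPM in LT-HSC and 18.7 CPM in CMP (-4.84), while the mitotic kinase Aurka (0.65) and Cdc20 (-0.34) were the highest of that list. Both rested on LT-HSC 17, the source of 78.7% of Aurka and 50.8% of Cdc20 counts in the gate, and without that cell they stood at -1.46 and -1.25, with 17 of the mitosis genes at least 2-fold lower. The spindle motor Kif11 was at 13 CPM in LT-HSC and 92.5 CPM in CMP (-2.83). The replication licensing genes Cdc6 (-2.15) and Mcm4 (-2.09) were lowest among replication genes, while Mcm7 was at 0.37. Between blocks the lists separated further. Of all genes, 29.5% were at least 2-fold lower in LT-HSC 1 to 16 than in LT-HSC 17 to 34 and 26.8% higher. Of the lists, 13 of 16 replication genes and 16 of 17 mitosis genes were lower past 2-fold, with medians of -2.05 and -3.45. A few later cells carried much of this, above all LT-HSC 17, 18 and 33, whose cycle shares were 77.1, 64.8 and 65.6 per 10000. LT-HSC 17 alone held 97.7% of the later block's Ccnb2 counts, 98.2% of Plk1 and 90.2% of Ube2c, and LT-HSC 33 held 99.4% of Cenpe. Without LT-HSC 17, 11 mitosis genes were at least 2-fold lower, and the median was -2.47. Several were counted in more of the earlier cells, as Ccnb1 was (15 of the 16 earlier and 8 of the 18 later) and Top2a (13 and 8).

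**Figure D5:**
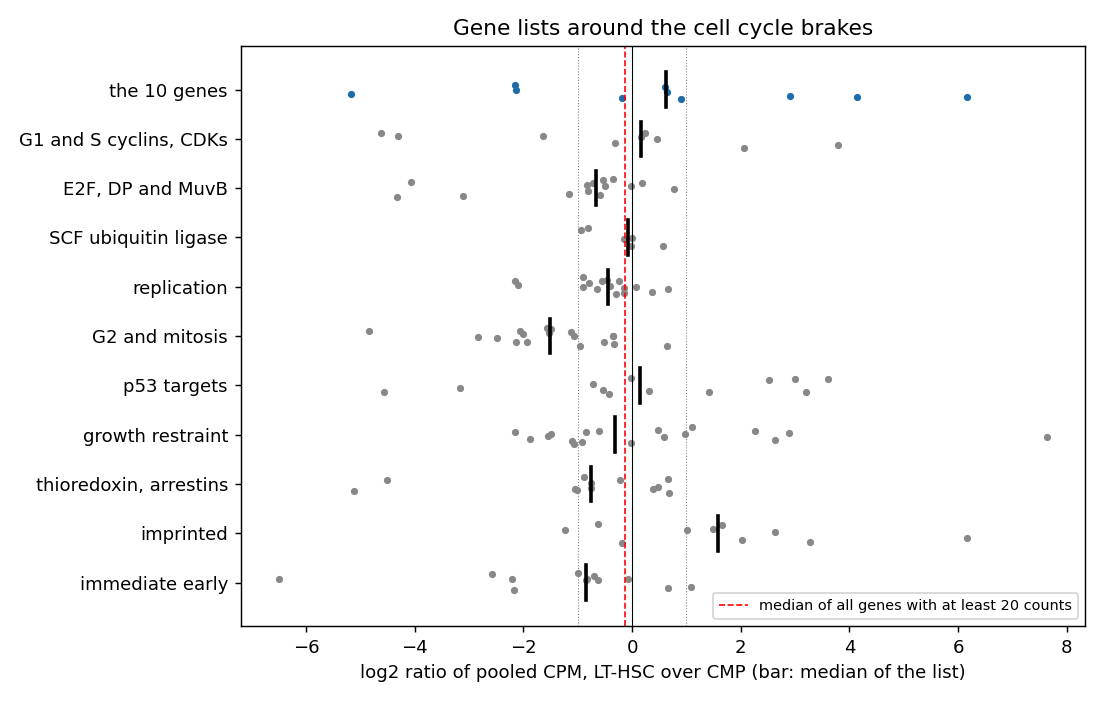
Log2 ratio of pooled CPM, LT-HSC over CMP, for each gene with at least 20 counts (points), by list; black bars are list medians and the dashed line is the median of all genes at -0.13. The G2 and mitosis list has its median at -1.51 and the imprinted list at 1.57, and the 10 genes spread from -5.17 to 6.16.

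Of 12 other targets of p53, 5 passed 2-fold upward in LT-HSC and 2 downward, beside 22.7% and 28.1% of all genes. The median of the 12 was 0.14. Set against CMP 1 and 2, 3 of 9 passed upward and 1 downward (median 0.75), beside 43.1% and 18.9% of all genes. Fas, a death receptor, was at 12.9 CPM in LT-HSC and 0.99 CPM in CMP (3.61). It was counted in only 4 LT-HSC and 2 CMP, with 62.5% of the LT-HSC counts in cell 17. Zmat3 was at 12.5 CPM in LT-HSC and 2.12 CPM in CMP (2.51), with 97.6% of the LT-HSC counts in cell 18. Ei24 (-4.56) and Trp53inp1 (-3.17) were lowest. Mdm2, the ubiquitin ligase of p53, was at 53.8 CPM in LT-HSC and 54.7 CPM in CMP (-0.02).

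Among 18 further genes of growth restraint, 5 passed 2-fold upward in LT-HSC and 6 downward (median -0.31). These shares were near the 22.7% and 28.1% of all genes. Against CMP 1 and 2, 11 of 17 passed upward and 4 downward (median 1.83), beside 43.1% and 18.9% of all genes. Pik3ip1, an inhibitor of PI3 kinase, was at 158 CPM in LT-HSC and 21.4 CPM in CMP (2.88) and was counted in 29 of 34 LT-HSC. Gadd45g was at 70.5 CPM in LT-HSC and 0.28 CPM in CMP (7.64, 6.10 to 11), and LT-HSC 33 held 70.7% of it. Btg1, the closest relative of Btg2, was at 14.8 CPM in LT-HSC and 65.7 CPM in CMP (-2.15).

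Of 12 thioredoxin, arrestin and glucose response genes, partners or relatives of Txnip, 0 passed 2-fold upward in LT-HSC and 4 downward (median -0.75). The shares of all genes were 22.7% and 28.1%. Against CMP 1 and 2, 5 of 11 passed upward, near the 43.1% of all genes, and 3 downward, beside 18.9% (median -0.05). Txn1, the thioredoxin that Txnip binds, was at 1502 CPM in LT-HSC and 1155 CPM in CMP (0.38). Arrdc4, a paralog of Txnip that responds to glucose as well, was at 20.4 CPM in LT-HSC and 12.9 CPM in CMP (0.66). LT-HSC 32 held 48.3% of the LT-HSC Arrdc4 counts, and without that cell Arrdc4 stood at -0.23. Arrdc1 was at 69.4 CPM in LT-HSC and 43.2 CPM in CMP (0.68). The paralog Arrdc3 was at 0.91 CPM in LT-HSC and 21.8 CPM in CMP (-4.52), and the stress gene Ddit4 had 2 counts in LT-HSC and 61 in CMP, 86.9% of them in CMP 15.

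Cdkn1c and Ndn are imprinted, each transcribed from a single parental allele. Of 24 further imprinted genes, 10 had at least 20 counts. Of these 10, 7 passed 2-fold upward in LT-HSC and 1 downward, beside 22.7% and 28.1% of all genes. The median of the 10 was 1.57. The median was 0.85 with CPM averaged over cells and 0.69 with LT-HSC 17 to 34 only. Against CMP 1 and 2 the median was 1.34, and 6 of 10 passed upward and 0 downward, beside 43.1% and 18.9% of all genes. Single cells made up several of the 7: LT-HSC 2 held all Mkrn3 counts of the gate, LT-HSC 6 held 92.3% of those of Meg3, and LT-HSC 17 held 94.3% of those of Igf2r (2.02, and -1.88 without that cell). Phlda2, a neighbour of Cdkn1c in the same imprinted domain and a restraint on placental growth in mice, was at 75.7 CPM in LT-HSC and 0.99 CPM in CMP (6.16, 5.21 to 7.58) and was counted in 19 LT-HSC and 2 CMP. Between blocks, Phlda2 was at 3.23 CPM in LT-HSC 1 to 16 and 114 CPM in LT-HSC 17 to 34 (-5.08). The Cdkn1c block ratio of 4.33 had the other sign, but LT-HSC 5 held 63 of the 68 earlier Cdkn1c counts. Without that cell the Cdkn1c ratio was 0.72, so the 2 genes are not set against each other here. Kcnq1ot1 (-0.62) and Peg12 (-1.24) were lowest.

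Immediate early genes, with which Btg2 is often induced, differed by block and by set of CMP. Over gates, 1 of 12 passed 2-fold upward in LT-HSC and 4 downward (median -0.84), led by Atf3 (-6.50; 88.8% of CMP counts in CMP 3) and Fosb (-2.57), with Ier3 (1.09) and Egr1 (0.67) at the other end. This direction depended on the CMP compared: against CMP 1 and 2, 10 of 11 passed 2-fold upward in LT-HSC and 0 downward (median 2.92). Of all genes, 43.1% passed upward and 18.9% downward in that comparison, with a median of 0.63. Over blocks, 9 of 11 passed 2-fold upward in LT-HSC 1 to 16 and 0 downward (median 2.42), beside 26.8% and 29.5% of all genes. Egr1 was at 282 CPM in LT-HSC 1 to 16 and 32.4 CPM in LT-HSC 17 to 34. Btg2 differed by 0.72 between the same blocks, and 12 of the 16 earlier LT-HSC had no Btg2 count.

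Of the INK4 genes outside the 10, Cdkn2b had 0 counts in LT-HSC and 2 in CMP, and Cdkn2a had 0 in every cell. A symbol without a count in any cell can also have been lost in counting, so nothing is read from Cdkn2a. Of the markers of other cells, macrophage markers summed to 0.30 CPM in LT-HSC and 0.71 CPM in CMP, stromal markers to 1.61 CPM in LT-HSC and 0.42 CPM in CMP, and basophil and mast cell markers to 11.7 CPM in LT-HSC and 329 CPM in CMP, where all 24 cells had a count (up to 3780 CPM). Nkg7, of the T and NK cell list, was at 349 CPM in LT-HSC (20 of 34 cells) and 427 CPM in CMP (24 of 24). Of the endothelial markers, Emcn was at 42.2 CPM in LT-HSC and 12.2 CPM in CMP with Cdh5 at 0, and of the B cell markers Cd79b was at 80.8 CPM in LT-HSC and 47.1 CPM in CMP with Ms4a1 at 0. Neutrophil markers were counted in every cell and summed to 336 CPM in LT-HSC and 907 CPM in CMP, with 219 to 606 CPM per LT-HSC and 3.03 to 5940 CPM per CMP. Their part in the gate ratios was not tested.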

How the data were processed

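Single cells of both gates were reverse transcribed with primers carrying an 8 nt barcode and a molecular identifier, amplified, and captured at 3′ ends, per the labels' protocols. The submitters' processing notes name Seurat 2.0, HTSeq, TopHat2 2.0.12 and the build mm10, without their roles, and how strand was counted was not given in the sources used here. The authors deposited whole-number counts per gene symbol and cell in 1 table. All 58 cells entered, no cell pair was identical, and no doublet caller was run on hand-picked cells. Totals per cell ranged from 45022 to 860553.

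Counts of a pool's cells were added up and divided by the summed total (CPM). Log2 ratios add 0.5 to each count, with exact conditional binomial 95% intervals. The intervals were tried on simulated Poisson counts without spread between cells, so that trial says nothing about such spread. A pool at 0 was set to 3 counts, no ratio was given where neither pool passed 3, and lists used genes with at least 20 counts. A gene is called different past 2-fold; there is no test. Python 3.11.15, pandas 2.3.3, NumPy 2.4.6 and SciPy 1.17.1 were used. For shares of cells, each cell was thinned to 97978 counts and 6 shallower cells were left out.

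The 10 genes, the gene lists and the tests were chosen with earlier results of these data known. From each list, up to 2 highest and 2 lowest log2 ratios among genes with at least 50 counts were named; Cdk4, Mdm2, Txn1, genes at 0 and genes given for the cells that held them were named after their values were seen. For genes counted in at least 17 LT-HSC, the 3 with the highest Spearman's rho of CPM were named. Gene positions are from GENCODE M21 (10 of 10 matched), 1-based on mm10. Alternatives were averaged CPM, median-of-ratios scaling, thinning, an added count of 1, a minimum of 100 counts or none, leaving out each cell or the shallowest cells, CMP 3 to 24 alone, cells without an Xist count, and each LT-HSC block alone. Some list members are not reported here.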

Additional observations from a re-analysis of the deposited data

How the results depend on the processing

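Limits: each gate is 1 sample, sex and gate nearly coincide, and many values rest on 1 to 3 cells. Depth limits rare genes: a pool without a count allows up to 0.30 CPM in LT-HSC and 0.42 CPM in CMP. No paired analysis was possible because the numbers shared by the gates only name cells and no test was made.

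Restricted to cells without an Xist count, Cdkn1a (3.77) and Btg2 (1.90) reversed. Of the 9 genes compared there, 6 passed 2-fold upward in LT-HSC and 0 downward, 2 of the 6 with the CMP pool set to 3 counts. The median log2 ratio of the 9 was 1.90. With LT-HSC 1 to 16 only, 5 were at least 2-fold lower than in CMP, the median was -0.45, and Rb1 was at -3.52. Between blocks, thinned cells gave 2 higher, 1 lower and a median of 0.19, and averaging CPM over cells gave a median of 0.080. Leaving out each cell in turn, the gate median ran from 0.24 to 0.75, with 2 to 4 genes higher and 3 to 4 lower. The block median ran from -0.34 to 0.97, with 2 to 4 genes higher (2 without LT-HSC 5) and 1 to 4 lower (1 without LT-HSC 17). Cdkn1b reversed between blocks (-0.34) without LT-HSC 9, and its block ratio ran up to 2.86 without LT-HSC 23. The cause of these changes was not tested. With averaged CPM, no gate ratio was given for Cdkn1c. Median-of-ratios scaling shifted gate ratios by 0.15 and block ratios by 0.03. Of the single-gene ratios under settings other than leaving out a cell, 83 stayed within the counting interval, 43 left it, and 2 reversed after a difference past 2-fold, those of Cdkn1a and Btg2. Leaving out each cell was extended to the counts of the gene lists and to single list genes after the data were seen.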
